A study of Mus musculus with 20 samples.

Results

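The genes described here are 10 ligands and receptors of the VEGF and angiopoietin systems, namely Vegfa, Vegfc, Kdr, Flt1, Flt4, Nrp1, Angpt1, Angpt2, Tek and Tie1. They were chosen by gene symbol, and all 10 were found among the 32081 genes with an FPKM value and the 20442 genes with a variance-stabilized value. All 10 passed the expression filter, a mean of at least 0.5 FPKM over the 20 libraries, which left 16848 genes for testing. Sequenced RNA came from endothelium that had been sheared off the aorta of female Apoe-/- mice (strain B6.129P2-Apoetm1Unc/J), which lack apolipoprotein E, on regular chow. Every mouse had 5/6 nephrectomy at 9 weeks of age, a single retro-orbital treatment 7 weeks later and tissue collection 1 week after that. The Dual group received HDL (4 mg) with both inhibitors, LNA92a and LNA489, at 20 mg/kg each and so 40 mg/kg in total. The LNA92a group received HDL (4 mg) with 20 mg/kg of LNA92a, and the LNA489 group HDL (4 mg) with 20 mg/kg of LNA489. The HDL group received HDL (4 mg) alone, and the Saline group neither HDL nor an inhibitor. Each group held 4 mice. A library is called by its group and the number of its mouse, as in HDL 11. All mice carried both the Apoe deletion and the kidney injury, so no group was free of either.

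VEGF ligands and angiopoietins act on receptor tyrosine kinases of the endothelium. VEGF-A binds the receptors encoded by Flt1 and Kdr, with Nrp1 as co-receptor, and VEGF-C binds the receptor encoded by Flt4, best known from lymphatic vessels. Angiopoietin-1 activates the receptor encoded by Tek (Tie2) and favours vessel quiescence, angiopoietin-2 opposes or replaces it depending on context, and Tie1 is a partner of Tek with no established ligand of its own. Endothelium of large arteries expresses several of these receptors, while Vegfa and Angpt1 are made largely by neighbouring cells such as smooth muscle cells, fibroblasts and adipocytes.

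The inhibitors are locked nucleic acid oligonucleotides named for miR-92a-3p and miR-489-3p. The mature mouse sequences from RefSeq (GRCm38.p6) are shown to give the letters that a seed match in a transcript would have, with the seed, bases 2 to 8, in capitals. miR-92a-3p comes from 2 precursors, at chr14:115044476-115044496 on the plus strand and chrX:52741854-52741874 on the minus strand, and miR-489-3p from chr6:3721922-3721944 on the minus strand.
mmu-miR-92a-3p: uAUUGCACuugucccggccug
mmu-miR-489-3p: aAUGACACcacauauauggcagc

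The seeds differ, and each miRNA had a perfect 7-base match in the annotated 3′ UTR of exactly 1 of the 10 genes. The match to miR-92a-3p (GTGCAAT) lay in Angpt2, at bases 1273 to 1279 of a UTR of 1785 bases, and the match to miR-489-3p (GTGTCAT) in Angpt1, at bases 2230 to 2236 of a UTR of 2247 bases. The sites are shown with the match in capitals.
Angpt2 (chromosome 8): acagagcactaGTGCAATttctcctgtag
Angpt1 (chromosome 15): caataaaagctGTGTCATttctatgaaaa

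Such a match is a description of letters and not a site of binding. Among 12943 tested genes with a 3′ UTR, 7.51% held the miR-92a-3p match and 10.2% the miR-489-3p match. Among genes with a UTR within 20% of the length of that of Angpt2 the share was 8.21%, and for Angpt1 and miR-489-3p it was 13.1%. The Angpt1 match lies close to the annotated end of the transcript. The other genes held neither match in the UTR used.

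The depth was 11.6 to 21.4 M assigned reads a library (M, mega), and the 18S ribosomal gene Rn18s-rs5 took 3.25% to 22.4% of them, which lowers the FPKM of all other genes in a library rich in it. The median share was 4.71% in Dual, 18.7% in LNA92a, 7.44% in LNA489, 6.51% in HDL and 7.97% in Saline mice. By this median, FPKM values are lowered most in LNA92a mice. That does not hold for LNA92a 12, where the share was 6.07%. The variance-stabilized values are normalized between libraries. The 10 endothelial marker genes were detected in every library, with a summed level of 63.4 to 1989 FPKM. Markers of other cells were present too. The 6 macrophage genes summed to 503 to 9290 FPKM, the 6 fibroblast genes to 99.5 to 2687 FPKM, the 6 adipocyte genes to 18.9 to 2423 FPKM and the 6 smooth muscle genes to 20.3 to 233 FPKM. Lymphatic endothelial markers were low, at 0.909 to 81.3 FPKM for the 5 of 6 genes with a value, and Pdpn was at 0 in 19 libraries. Dual 10 and Saline 2 stood apart by 6 adrenal cortex genes, at 1584 and 1887 FPKM against at most 22.8 FPKM in the other libraries. HDL 11 stood apart by 5 B cell genes, at 607 FPKM against at most 86.6 FPKM elsewhere. LNA489 14 was highest in 6 striated muscle genes, at 898 FPKM against at most 403 FPKM elsewhere, and also had the highest fibroblast sum, 2687 FPKM. The libraries were thus mixtures with a variable endothelial share, and in bulk RNA fewer cells of a type and less RNA per cell cannot be told apart.

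Per length, Tek was the most abundant of the 10 genes by its median over the 20 libraries, 36.9 FPKM. Vegfa followed at 30.2 FPKM, Tie1 at 24.1 FPKM and Nrp1 at 19.9 FPKM. A lower tier held Kdr at 6.44, Flt4 at 3.50, Vegfc at 2.99, Flt1 at 2.94, Angpt2 at 2.09 and Angpt1 at 1.65 FPKM. The step between the tiers was the clearest, since Nrp1 exceeded Kdr in 19 of 20 libraries. Neighbours within the upper tier did not separate: Tek exceeded Vegfa in 12 libraries, Vegfa exceeded Tie1 in 9 and Tie1 exceeded Nrp1 in 11. In the lower tier Kdr exceeded Flt4 in 16 libraries, Flt4 exceeded Vegfc in 13 and Flt1 exceeded Angpt2 in 13, while Vegfc exceeded Flt1 in 9 and Angpt2 exceeded Angpt1 in 10. The ranges of all neighbours in this order overlapped.

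**Figure D1:**
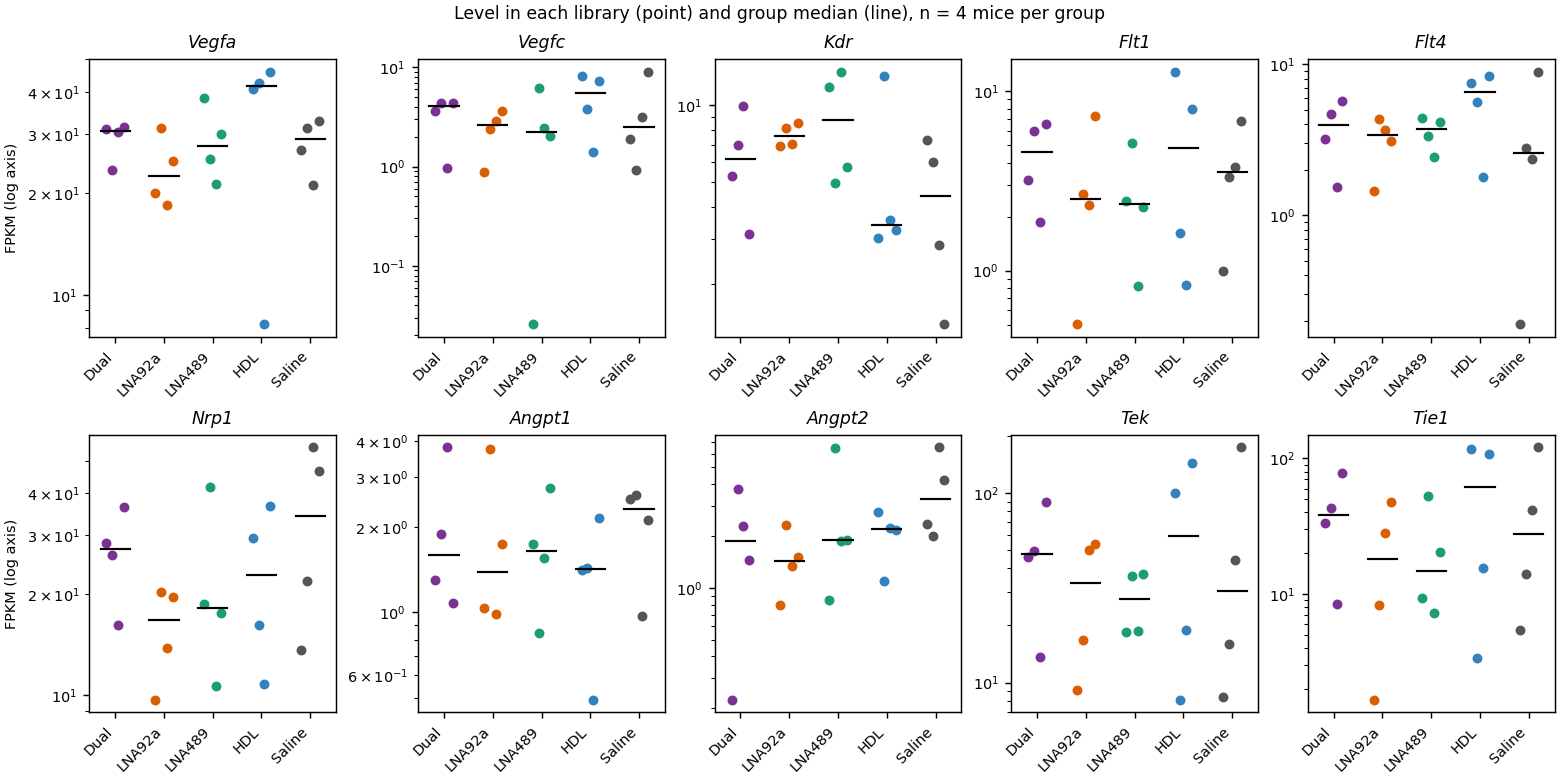
FPKM (log axis) of each gene in each of the 20 libraries, as points, with the group median as a line, in the order Dual, LNA92a, LNA489, HDL and Saline with 4 mice each. Within HDL the highest Tie1 value is 35.3 times the lowest and within Saline 22.2 times, and the groups overlap for every gene.

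Between treatment groups, none of the 10 genes passed the test. With limma on the variance-stabilized log2 values, 0 of 10 genes had a Benjamini-Hochberg adjusted p under 0.05 for Dual, LNA92a or LNA489 against HDL, HDL against Saline, or Dual against LNA92a or LNA489. The same held for the non-additive contrast (Dual minus LNA92a minus LNA489 plus HDL) and for the F-test over the 5 groups. The background gave no calls either, at 0% of the 16848 genes tested in each of these comparisons. At an unadjusted p under 0.05, limma listed 416 genes for Dual, 595 for LNA92a and 638 for LNA489 against HDL, and 281 for HDL against Saline. It listed 415 for Dual against LNA92a, 277 for Dual against LNA489 and 530 for the non-additive contrast. The 10 genes were in none of these lists. Limma's voom on recovered reads called 0 genes as well, with 555, 487, 676, 306, 310, 363 and 533 genes at that unadjusted level in the same order. Limma with array weights, which gives libraries unequal weight, also called 0 genes, but listed 3214, 3208, 3169, 899, 902, 758 and 2205 genes at that level. Its weights were 2.65 for HDL 23 and 2.00 for HDL 3, against 0.349 for HDL 4 and 0.341 for HDL 11. With these weights Flt4 was listed for Dual against HDL and for HDL against Saline, and Kdr and Tie1 for LNA92a against HDL. For LNA489 against HDL Vegfc, Kdr, Flt1, Tek and Tie1 were listed, and for the non-additive contrast Kdr, Flt1 and Tie1. The lowest adjusted p of the 10 genes in this fit was 0.189, that of Kdr for LNA92a against HDL (difference 1.52).

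The 4 values of one group were never all above or all below those of the other for any of the 10 genes. Over all tested genes such separation was seen in 1.88% for Dual, 2.22% for LNA92a and 1.54% for LNA489 against HDL. It was seen in 0.973% for HDL against Saline, 2.85% for Dual against LNA92a and 1.34% for Dual against LNA489. The median difference of the 10 genes was 0.02 for Dual, -0.11 for LNA92a and -0.25 for LNA489 against HDL, and 0.19 for HDL against Saline (log2), beside -0.03, -0.06, -0.05 and 0.03 over all tested genes. The share of variance over the 20 libraries that lay between group means was 31.1% for Kdr, 24.8% for Angpt2, 16.5% for Flt4 and 14.5% for Vegfc. It was 1.04% for Vegfa, 2.64% for Tek and 5.81% for Tie1, where the median gene had 16.0%. With so few mice a group such a share is well above 0 without any effect of treatment, and the F-test called 0 genes. The confidence intervals were wide, and a p above the threshold does not show that the genes were alike between groups.

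**Figure D2:**
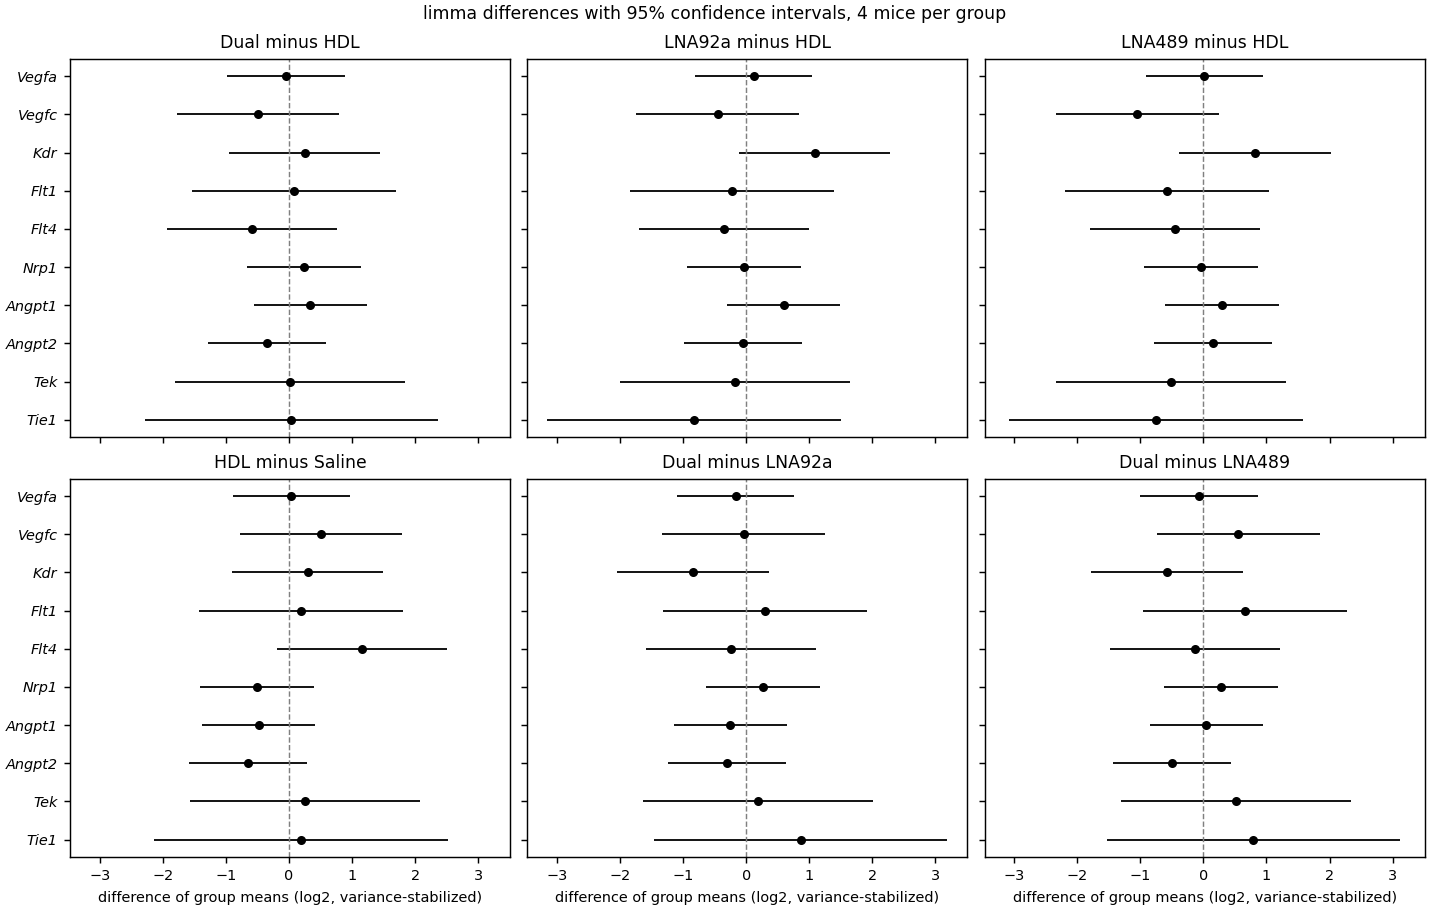
Difference of group means on the variance-stabilized log2 scale (x axis) with 95% confidence intervals from limma, for the 10 genes in 6 comparisons of 4 against 4 mice. All intervals include 0, and that of Tie1 is the widest, from -2.29 to 2.36 for Dual minus HDL.

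Of the ligands, Vegfa encodes the main growth factor for endothelium of blood vessels. It stood at 31.1, 23.5, 30.3 and 31.4 FPKM in Dual mice, 20.1, 31.2, 18.5 and 24.9 FPKM in LNA92a mice and 38.4, 25.3, 21.3 and 30.0 FPKM in LNA489 mice. HDL mice had 40.9, 42.5, 8.20 and 45.9 FPKM, and Saline mice 26.8, 31.2, 21.1 and 32.9 FPKM. By FPKM the 3 highest values of all 20 and the lowest were thus in HDL, the lowest in HDL 11, the library rich in B cell genes. On the variance-stabilized scale HDL 4 was highest, at 11.60, and HDL 11 lowest, at 8.81. There LNA489 7, at 11.43, lay above HDL 23 at 11.33 and HDL 3 at 11.21. The difference was -0.05 ± 0.44 for Dual, 0.12 ± 0.44 for LNA92a and 0.02 ± 0.44 for LNA489 against HDL, and 0.04 ± 0.44 for HDL against Saline (log2 ± SE, limma adjusted p of 0.957 or more). Without HDL 11 the same differences were -0.69, -0.52, -0.63 and 0.68, and none passed the threshold.

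Vegfc, the ligand of the Flt4 receptor, was lower and more uneven. It reached 3.67, 4.40, 0.976 and 4.39 FPKM in Dual mice, 0.879, 2.37, 2.86 and 3.65 FPKM in LNA92a mice and 0.026, 6.12, 2.44 and 2.02 FPKM in LNA489 mice. HDL mice had 8.06, 3.82, 1.41 and 7.26 FPKM, and Saline mice 1.91, 0.913, 3.12 and 9.01 FPKM. The value of LNA489 7 rests on 1 read, while the other libraries held 25 to 279 reads. Its lowest difference from HDL was in LNA489, at -1.04 ± 0.61 (log2 ± SE, 95% interval -2.33 to 0.25, limma adjusted p = 0.920), and without LNA489 7 it was -0.41.

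Among the VEGF receptors, Kdr (VEGFR2), the main signalling receptor for VEGF-A, had the largest difference of an inhibitor group from HDL. It stood at 5.30, 7.00, 9.85 and 3.13 FPKM in Dual mice, 6.90, 8.14, 7.02 and 8.50 FPKM in LNA92a mice and 11.8, 4.96, 13.5 and 5.71 FPKM in LNA489 mice. HDL mice had 3.04, 13.0, 3.57 and 3.24 FPKM, and Saline mice 7.32, 5.98, 2.85 and 1.40 FPKM. All 4 LNA92a values lay above 3 of the 4 HDL values and below that of HDL 4. The difference was 1.08 ± 0.57 for LNA92a (95% interval -0.12 to 2.29, adjusted p = 0.867), 0.82 ± 0.57 for LNA489 and 0.25 ± 0.57 for Dual against HDL (log2 ± SE, limma). Without HDL 4 the 3 differences were 1.66, 1.39 and 0.82, again with no call, and without Dual 15 that of Dual was -0.03. The adipocyte genes summed to a median of 184 FPKM in HDL mice, against 1192 in Dual, 910 in LNA92a, 1173 in LNA489 and 608 in Saline mice. HDL 4 had 2080 FPKM of them, and the other HDL libraries 43.4 to 233 FPKM. The part of this unequal tissue RNA in the Kdr differences was not tested. The non-additive contrast of Kdr was -1.66 ± 0.81 (95% interval -3.36 to 0.04, limma adjusted p = 0.930), which ranged from -2.23 to -1.35 when each library was left out in turn and was -1.01 on the log2(FPKM + 1) scale.

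Flt1 (VEGFR1), which binds VEGF-A tightly but signals weakly and acts largely as a decoy, ranged from 1.88 to 6.54 FPKM in Dual, 0.504 to 7.25 in LNA92a, 0.817 to 5.17 in LNA489, 0.836 to 12.8 in HDL and 0.996 to 6.81 in Saline mice. Its differences from HDL were 0.08 ± 0.77 for Dual, -0.23 ± 0.77 for LNA92a and -0.58 ± 0.77 for LNA489 (log2 ± SE). Without HDL 3 they were 0.66, 0.36 and 0.01, and without HDL 11 they were -0.60, -0.91 and -1.26. The FPKM ratio of Kdr to Flt1, the signalling to the decoy receptor, had a median of 1.41 in Dual, 3.02 in LNA92a, 3.67 in LNA489, 2.34 in HDL and 1.27 in Saline mice. Over single libraries it ran between 0.206 in Saline 24 and 16.5 in LNA489 14, so that each group median lay within the range of every other group.

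Flt4 (VEGFR3), the receptor for VEGF-C, had 3.21, 4.69, 1.55 and 5.74 FPKM in Dual mice, 1.45, 4.36, 3.66 and 3.10 FPKM in LNA92a mice and 4.42, 3.35, 2.44 and 4.16 FPKM in LNA489 mice. HDL mice had 7.48, 5.67, 1.78 and 8.34 FPKM, and Saline mice 0.190, 2.81, 2.37 and 8.95 FPKM. By FPKM both extremes were in Saline, and the lowest value, that of Saline 1, came from 26 reads. On the variance-stabilized scale HDL 23, at 9.85, lay just above Saline 24, at 9.83. The difference of HDL from Saline was 1.1596 ± 0.64 (log2 ± SE, 95% interval -0.19 to 2.51, limma adjusted p = 1.00), and without Saline 1 the difference was 0.40. The co-receptor Nrp1 ranged from 16.2 to 36.3 FPKM in Dual, 9.72 to 20.3 in LNA92a, 10.7 to 41.8 in LNA489, 10.8 to 36.6 in HDL and 13.7 to 54.8 in Saline mice. Its differences from HDL were 0.23 ± 0.43 for Dual, -0.03 ± 0.43 for LNA92a and -0.04 ± 0.43 for LNA489, and HDL differed from Saline by -0.51 ± 0.43 (log2 ± SE). Without HDL 11 these values were -0.15, -0.41, -0.42 and -0.13.

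The angiopoietins were the least abundant of the 10 genes. Angpt2, which holds the seed match to miR-92a-3p shown above, had 0.225, 3.73, 2.27 and 1.46 FPKM in Dual mice, 0.793, 2.30, 1.34 and 1.52 FPKM in LNA92a mice and 0.848, 6.50, 1.86 and 1.91 FPKM in LNA489 mice. HDL mice had 2.74, 1.09, 2.22 and 2.17 FPKM, and Saline mice 2.36, 2.00, 6.53 and 4.22 FPKM. The groups given LNA92a overlapped HDL, with differences of -0.04 ± 0.45 for LNA92a (95% interval -0.98 to 0.89) and -0.34 ± 0.45 for Dual (95% interval -1.28 to 0.59) against HDL (log2 ± SE, limma). Dual 8 held 11 reads of Angpt2, and without it the difference of Dual was 0.11. Without LNA92a 5 that of LNA92a was 0.10. Angpt1, which holds the match to miR-489-3p, had 1.29, 1.88, 3.81 and 1.07 FPKM in Dual mice, 1.03, 3.77, 0.988 and 1.74 FPKM in LNA92a mice and 1.74, 0.843, 1.55 and 2.74 FPKM in LNA489 mice. HDL mice had 1.41, 1.43, 0.492 and 2.15 FPKM, and Saline mice 2.51, 2.58, 0.972 and 2.12 FPKM. Angpt1 differed from HDL by 0.34 ± 0.43 in Dual (95% interval -0.56 to 1.24) and by 0.29 ± 0.43 in LNA489 (95% interval -0.60 to 1.19), and these values overlap as well. Without Dual 15 the difference of Dual was 0.02, and without HDL 11 that of LNA489 was -0.02. In GENCODE M21, which has a longer model of Angpt1 than the deposited length, 14.2% of the exonic bases of Angpt1 are shared with the antisense gene Gm17473, and strand use in counting was not given, so its level is uncertain.

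The FPKM ratio of Angpt2 to Angpt1, the context-dependent to the activating ligand of Tek, had a median of 0.976 in Dual, 0.820 in LNA92a, 0.946 in LNA489, 1.48 in HDL and 1.47 in Saline mice. It exceeded 1 in 10 of 20 libraries, with the highest values in LNA489 13 at 7.71 and in Saline 9 at 6.71. These 2 libraries also had the highest Angpt2 levels, and their macrophage genes summed to 9290 and 6604 FPKM, where Dual 10 alone of the others was as high, at 7310 FPKM. The part of macrophage RNA in these Angpt2 levels was not tested.

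Tek (Tie2), the angiopoietin receptor, had 45.7, 49.6, 13.6 and 89.4 FPKM in Dual mice, 9.12, 16.8, 49.997 and 53.8 FPKM in LNA92a mice and 18.6, 36.4, 18.7 and 37.3 FPKM in LNA489 mice. HDL mice had 99.7, 8.14, 18.8 and 143 FPKM, and Saline mice 8.36, 16.0, 44.4 and 174 FPKM. Tie1, its partner, had 33.5, 43.0, 8.37 and 77.5 FPKM in Dual mice, 1.66, 8.32, 28.0 and 48.0 FPKM in LNA92a mice and 9.28, 52.7, 7.28 and 20.3 FPKM in LNA489 mice. HDL mice had 118, 3.35, 15.5 and 108 FPKM of Tie1, and Saline mice 5.45, 14.1, 41.6 and 121 FPKM. Both receptors were high and low in largely the same mice, and each group held low as well as high libraries. On the variance-stabilized scale the SD over the 20 libraries was 1.58 for Tie1, above that of 98.4% of tested genes, and 1.21 for Tek. The differences from HDL were 0.01 ± 0.87 for Dual, -0.18 ± 0.87 for LNA92a and -0.51 ± 0.87 for LNA489 in Tek, and 0.04 ± 1.11, -0.83 ± 1.11 and -0.75 ± 1.11 in Tie1 (log2 ± SE, limma). Single libraries moved them far: with each library left out in turn, those of Tek ranged from -0.62 to 0.61 for Dual, -0.81 to 0.42 for LNA92a and -1.14 to 0.09 for LNA489. Those of Tie1 ranged from -0.85 to 0.69 for Dual, -1.71 to -0.02 for LNA92a and -1.64 to -0.10 for LNA489. All of these extremes came from leaving out HDL 3, HDL 4 or HDL 23, except the -0.02, which was without LNA92a 5.

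The variation between libraries followed an endothelial marker. Cdh5, which encodes the endothelial adhesion molecule VE-cadherin, ranged from 4.51 FPKM in LNA92a 5 to 184 FPKM in HDL 23. Over the 20 libraries 7 of the 10 genes correlated with Cdh5 on the variance-stabilized scale, 6 positively and 1 negatively, at a permutation p adjusted over the 16847 genes tested of under 0.05. The background was high, since 32% of all tested genes passed, 15.5% positively and 16.5% negatively. Of 60 relations computed in all, those of the 10 genes with 6 marker genes, p-values were adjusted over all genes tested for each marker gene.

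Tie1 followed Cdh5 almost exactly, with Pearson r = 0.986 and Spearman rho = 0.992. Tek had r = 0.956 and rho = 0.949, and Flt1 had r = 0.874 and rho = 0.902. For these 3 genes p reached 1e-05, the least possible with 100000 permutations; adjusted permutation p was 0.000311 for r and 0.000305 for rho. Without LNA92a 5 and Saline 1, the libraries farthest from the median of Cdh5, r was 0.988 for Tie1, 0.954 for Tek and 0.837 for Flt1. After removal of group means r came to 0.991 for Tie1, 0.959 for Tek and 0.871 for Flt1. Among the 10 libraries with more reads r was 0.983 for Tie1, 0.943 for Tek and 0.870 for Flt1, and among the 10 with fewer it was 0.986, 0.962 and 0.891, with no test in these smaller sets.

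Nrp1 and Vegfc followed less closely. Nrp1 had r = 0.701 (permutation p = 0.00054, adjusted p = 0.00434) and rho = 0.728 (p = 0.00049, adjusted p = 0.00365), and r was 0.668 without the 2 farthest libraries. Vegfc had r = 0.690 (permutation p = 0.00043, adjusted p = 0.00378) and rho = 0.707 (p = 0.00079, adjusted p = 0.00508), and r was 0.703 without the 2 farthest libraries, but 0.409 in the 10 deeper and 0.930 in the 10 shallower libraries. Flt4 had r = 0.589 (permutation p = 0.00346, adjusted p = 0.016) and rho = 0.589 (p = 0.00677, adjusted p = 0.0245). The call of Flt4 was lost without the 2 farthest libraries, at r = 0.499 (permutation p = 0.0366, adjusted p = 0.103), and without Saline 1 alone it was 0.542 and also not called. In the 10 deeper libraries r of Flt4 was 0.332 and in the 10 shallower 0.883.

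Kdr ran the other way, with r = -0.663 (permutation p = 0.00157, adjusted p = 0.00885) and rho = -0.677 (p = 0.00139, adjusted p = 0.00764). It stayed at r = -0.647 (adjusted permutation p = 0.0218) with LNA92a 5 and Saline 1 left out, and after removal of group means -0.724. In the 10 deeper libraries r was -0.844 and in the 10 shallower -0.452. The highest Kdr levels, 13.5 FPKM in LNA489 14, 13.0 FPKM in HDL 4, 11.8 FPKM in LNA489 7 and 9.85 FPKM in Dual 15, stood beside 11.9, 8.69, 13.5 and 14.6 FPKM of Cdh5. The lowest, 1.40 FPKM in Saline 24, 2.85 FPKM in Saline 9, 3.04 FPKM in HDL 3 and 3.13 FPKM in Dual 21, stood beside 174, 62.1, 182 and 120 FPKM of Cdh5. By FPKM a receptor known from endothelium was thus highest in libraries low in this endothelial marker. LNA92a 18 came next, at 8.50 FPKM of Kdr beside 81.9 FPKM of Cdh5. On the variance-stabilized scale HDL 4, LNA489 7 and LNA489 14 were again highest, at 10.97, 10.81 and 10.58. There LNA92a 5, LNA92a 18 and LNA92a 17, at 10.42, 10.41 and 10.39, lay above Dual 15, at 10.32. These LNA92a libraries had 4.51, 81.9 and 57.4 FPKM of Cdh5. Vegfa (r = 0.04), Angpt1 (r = -0.27) and Angpt2 (r = 0.26) did not pass, with adjusted permutation p of 0.913, 0.385 and 0.422. In the 10 deeper libraries their r was -0.514, -0.698 and 0.413, and in the 10 shallower 0.404, 0.179 and 0.367, with no test in these smaller sets.

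**Figure D3:**
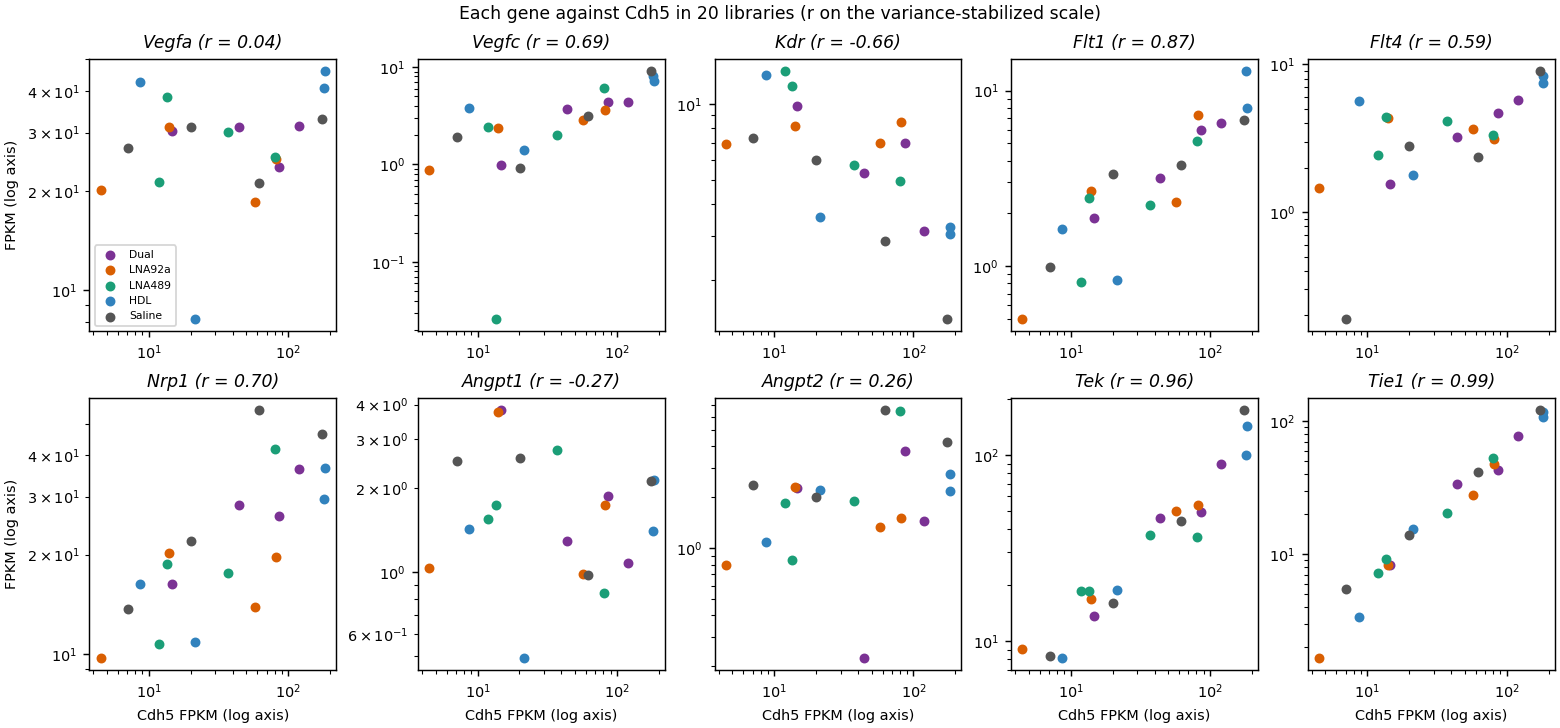
FPKM of each gene (y axis) against FPKM of Cdh5 (x axis) in 20 libraries, both on log axes, coloured by group, with Pearson r on the variance-stabilized scale in each title. Tie1 and Tek lie along a rising line through all groups, while Kdr falls as Cdh5 rises.

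Promoter sequences are shown for the 2 genes that followed Cdh5 most closely and for the 1 that ran against it. RefSeq windows of 250 bases before to 50 after the annotated start were listed for 8 of the 10 genes (GRCm38.p6), and capitals mark any match, on either strand, to the ETS cores CAGGAA and CCGGAA, the GC box GGGCGG or the hypoxia element core ACGTG.
Tie1 promoter, chr4:118489800-118490099, minus strand: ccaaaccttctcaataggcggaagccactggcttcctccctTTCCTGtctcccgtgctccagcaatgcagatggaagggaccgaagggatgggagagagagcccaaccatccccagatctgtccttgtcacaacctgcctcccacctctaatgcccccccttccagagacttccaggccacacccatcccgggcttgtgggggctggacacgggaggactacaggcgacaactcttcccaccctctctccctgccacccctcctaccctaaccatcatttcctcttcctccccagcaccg
Tek promoter, chr4:94739039-94739338, plus strand: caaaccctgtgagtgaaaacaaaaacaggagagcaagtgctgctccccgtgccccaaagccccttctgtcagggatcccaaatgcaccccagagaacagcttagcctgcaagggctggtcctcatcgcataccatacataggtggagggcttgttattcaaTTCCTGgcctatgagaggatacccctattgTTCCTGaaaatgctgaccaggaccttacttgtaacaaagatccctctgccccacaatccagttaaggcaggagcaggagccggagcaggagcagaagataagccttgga
Kdr promoter, chr5:75978406-75978705, minus strand: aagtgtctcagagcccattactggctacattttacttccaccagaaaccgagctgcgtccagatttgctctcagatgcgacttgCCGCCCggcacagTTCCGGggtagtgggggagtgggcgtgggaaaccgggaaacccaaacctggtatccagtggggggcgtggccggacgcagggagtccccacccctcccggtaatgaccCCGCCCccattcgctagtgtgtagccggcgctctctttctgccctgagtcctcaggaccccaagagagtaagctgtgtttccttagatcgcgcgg

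Tie1 held 1 and Tek 2 matches to CAGGAA, a motif present in 30.6% of 32851 promoters of the same length, and neither held a GC box, present in 35.7%. Kdr held 2 GC boxes and 1 match to CCGGAA, present in 14.9%. ACGTG, present in 19.6%, had 0 matches in these 3 windows. The GC content was 60.3% for Tie1, 52.0% for Tek and 60.7% for Kdr. Vegfa, Vegfc, Flt1, Flt4 and Nrp1 each held at least 1 GC box in the windows listed.

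Relative to Cdh5 in the same library, the angiopoietin receptors varied far less than on their own. Tie1 lay at 36.9% to 77.0% of the FPKM of Cdh5 over the 20 libraries, while Tie1 itself varied 72.7-fold and Cdh5 40.8-fold. Its median share was 60.9% in Dual, 53.7% in LNA92a, 63.4% in LNA489, 61.9% in HDL and 69.8% in Saline mice. Tek lay at 45.2% to 202% of Cdh5, with medians of 83.8% in Dual, 104% in LNA92a, 119% in LNA489, 83.0% in HDL and 89.8% in Saline mice. Flt1 kept to 3.90% to 19.1%. By contrast Kdr ran from 0.804% of Cdh5 in Saline 24 to 153% in LNA92a 5, and Vegfa from 18.9% to 489%.

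After subtraction of Cdh5 on the variance-stabilized scale, 0 of the 10 genes and 0% of the 16847 genes tested passed limma in any comparison, and none of the 10 had an unadjusted p under 0.05. At that unadjusted level limma listed only 2 (Dual against HDL) to 63 (non-additive contrast) of all 16847 genes. The subtraction brings the spread of Cdh5 into every gene, and the median SE over all tested genes was 1.21, against 0.357 without it. The absence of the 10 genes here is therefore not a result about them. The median difference from HDL was 0.07 in Dual, 0.54 in LNA92a and 0.62 in LNA489 for the 10 genes, beside 0.01, 0.60 and 0.82 over all tested genes. Cdh5 itself differed from HDL by -0.05 in Dual, -0.65 in LNA92a and -0.87 in LNA489 (log2), a shift that the subtraction gives to every gene. The moderated SE of the 10 genes was 0.94 to 1.40. With the spread of each gene alone, a setting added after the data were seen, Tie1 relative to Cdh5 differed from HDL by 0.08 ± 0.17 in Dual (95% interval -0.28 to 0.45), -0.17 ± 0.17 in LNA92a (-0.54 to 0.19) and 0.11 ± 0.17 in LNA489 (-0.25 to 0.47), and HDL from Saline by -0.29 ± 0.17 (-0.65 to 0.07). For Tek these values were 0.06 ± 0.38, 0.47 ± 0.38, 0.36 ± 0.38 and -0.23 ± 0.38. None was called, at adjusted p of 0.813 or more for both genes in these 4 comparisons.

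**Figure D4:**
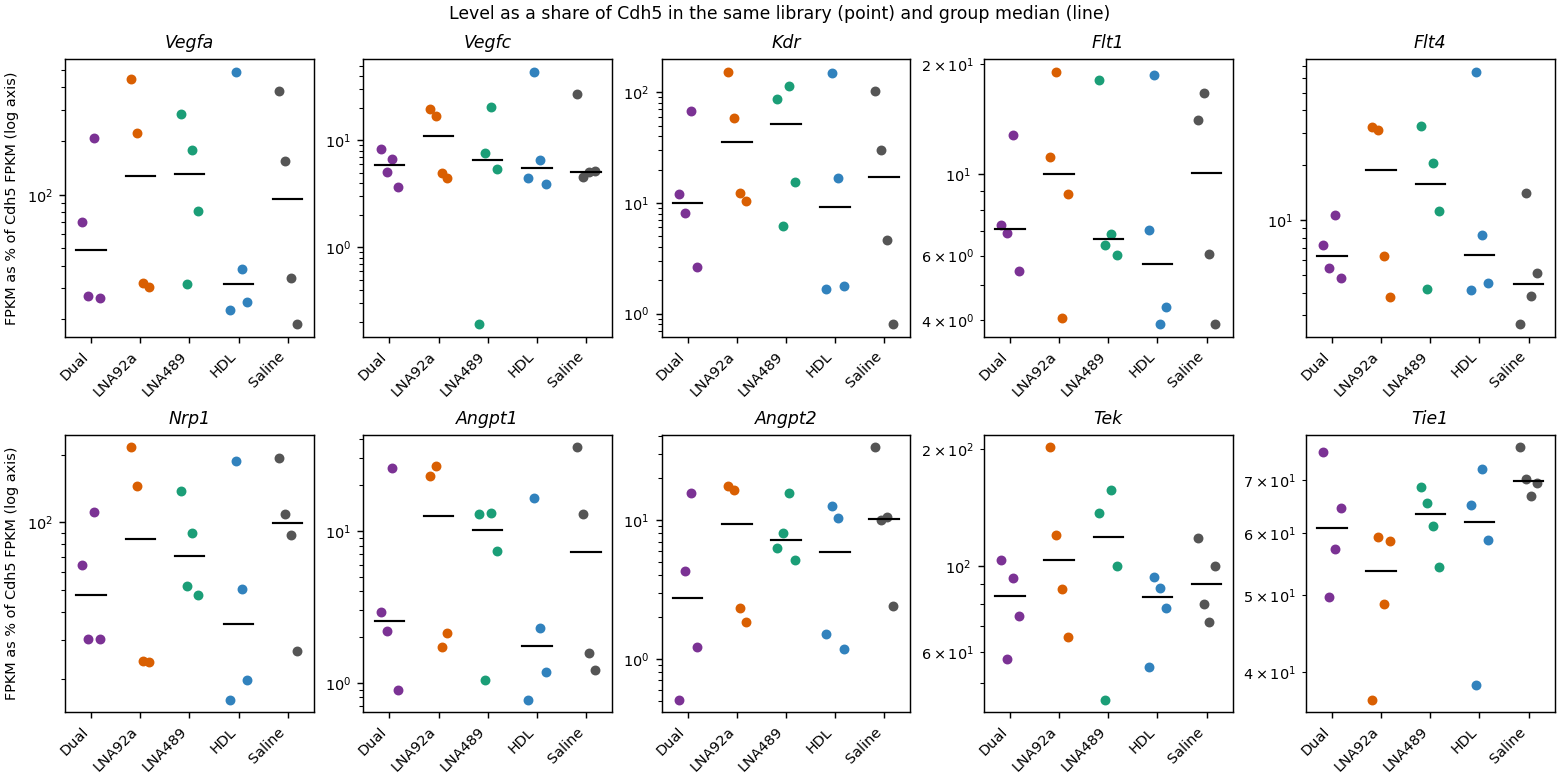
FPKM of each gene as a percentage of the FPKM of Cdh5 in the same library (log axis), as points, with group medians as lines, in the order Dual, LNA92a, LNA489, HDL and Saline. Tie1 stays between 36.9% and 77.0% in all 20 libraries, while Kdr runs from 0.804% to 153%.

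Another 5 marker genes were set beside the 10 genes after the opposite course of Kdr had been seen. With Adipoq, an adipocyte hormone gene (3.33 to 373 FPKM), 5 of the 10 genes correlated at an adjusted permutation p under 0.05, where 45.2% of all tested genes did. By direction, 2 of the 10 were positive, beside 20.7% of all tested genes, and 3 were negative, beside 24.5%. Kdr had r = 0.823 (permutation p = 2e-05, adjusted p = 0.000219) and rho = 0.777 (p = 8e-05, adjusted p = 0.000591), and with the 2 libraries farthest from the median of Adipoq left out the adjusted permutation p of r was 0.00102. Angpt1 had r = 0.677 (permutation p = 0.0011, adjusted p = 0.00497) and rho = 0.683 (p = 0.00118, adjusted p = 0.00483), and 0.606 without the 2 farthest. Tie1 ran against Adipoq, with r = -0.725 (permutation p = 0.0004, adjusted p = 0.0023) and rho = -0.794 (p = 7e-05, adjusted p = 0.000534), as did Tek with r = -0.623 (p = 0.00378, adjusted p = 0.0127) and rho = -0.671 (p = 0.00156, adjusted p = 0.00599). These held without the 2 farthest libraries, at adjusted p of 0.00144 and 0.0118, while Nrp1 (r = -0.543, adjusted permutation p = 0.0346) did not (r = -0.390, adjusted p = 0.191).

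With Pdgfra, a fibroblast receptor gene (0.287 to 29.6 FPKM), 8 of the 10 genes passed, where 45.3% of all tested genes did. By direction, 2 were positive, beside 20.7% of all tested genes, and 6 were negative, beside 24.6%. Kdr had r = 0.820 (permutation p = 1e-05, adjusted p = 0.00014) and Angpt1 r = 0.633 (p = 0.00261, adjusted p = 0.00915), with rho of 0.818 (p = 2e-05, adjusted p = 0.000306) and 0.558 (p = 0.012, adjusted p = 0.0317). The 6 negative ones were Tie1, Tek, Nrp1, Vegfc, Angpt2 and Flt1, of which Nrp1, Angpt2 and Flt1 lost the call without the 2 farthest libraries. After removal of group means Nrp1, Vegfc and Flt1 were not called, at adjusted permutation p of 0.0908, 0.115 and 0.0812. Kdr and Angpt1 moved with adipocyte and fibroblast markers across libraries, but the share of the 10 genes called positive was near that of all tested genes. The r of Angpt1 exceeded that of 86.0% of tested genes for Adipoq and 84.3% for Pdgfra. For Kdr these shares were 92.4% and 92.2%. The part of fat or connective tissue RNA in the levels of Kdr and Angpt1 was not tested. The marker genes were themselves opposed, since Cdh5 had r = -0.700 with Adipoq and -0.746 with Pdgfra. All these relations were computed over the same 20 libraries and are not separate evidence from those with Cdh5.

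With Cd68 of macrophages, 1 of 10 genes passed, Nrp1 at r = 0.626 (permutation p = 0.00299, adjusted p = 0.0428), where 7.66% of all tested genes did, 5.81% positively, but rho = 0.642 had an adjusted permutation p of 0.0512, and r without the 2 farthest libraries was 0.478 (adjusted p = 0.371). After removal of group means Nrp1 did not pass (r = 0.612, adjusted permutation p = 0.149), while Angpt2 did (r = 0.691, adjusted permutation p = 0.0464). In that setting 748 of the 16847 genes tested passed. With group means kept Angpt2 did not pass (r = 0.507, adjusted permutation p = 0.118). Without the 2 farthest libraries, Saline 9 and LNA489 13, its r was 0.226 (adjusted permutation p = 0.708). With Prox1 of lymphatic endothelium, which reached at most 2.07 FPKM, Nrp1 passed at r = -0.718 (permutation p = 0.00039, adjusted p = 0.0454), where 1.25% of tested genes did, 0.368% negatively, and no gene passed by rho or without the 2 farthest libraries. Flt4, known from lymphatic endothelium, had r = -0.219 with Prox1 (adjusted permutation p = 0.550). Kdr did not pass, at r = 0.656 with Prox1 (permutation p = 0.00158, adjusted p = 0.0586), but this r exceeded that of 98.2% of tested genes. Without the 2 farthest libraries it was 0.563 (adjusted permutation p = 0.193). Tek and Tie1 ran against Prox1 and did not pass either, at r = -0.646 and -0.633 (adjusted permutation p = 0.0597 and 0.0619). Prox1 and the sum of the lymphatic markers did not always go together. LNA489 7 had the highest sum, 81.3 FPKM, with 0.297 FPKM of Prox1, and HDL 11 had 11.8 FPKM with 2.07 FPKM of Prox1. HDL 4 was high in both, at 81.1 and 1.64 FPKM. The relation of Flt4 to this sum was not tested. With Myh11 of smooth muscle, 0 of 10 and 0% of all tested genes passed by permutation of r or of rho. At an unadjusted permutation p under 0.05, 2 of the 10 were listed for r, Flt4 (r = -0.509, p = 0.0303) and Angpt1 (r = 0.509, p = 0.0217). The share of all tested genes at that level was not counted. Without Saline 1 and Dual 15, the libraries farthest from the median of Myh11, r was 0.162 for Flt4 (permutation p = 0.52) and 0.385 for Angpt1 (permutation p = 0.115).

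**Figure D5:**
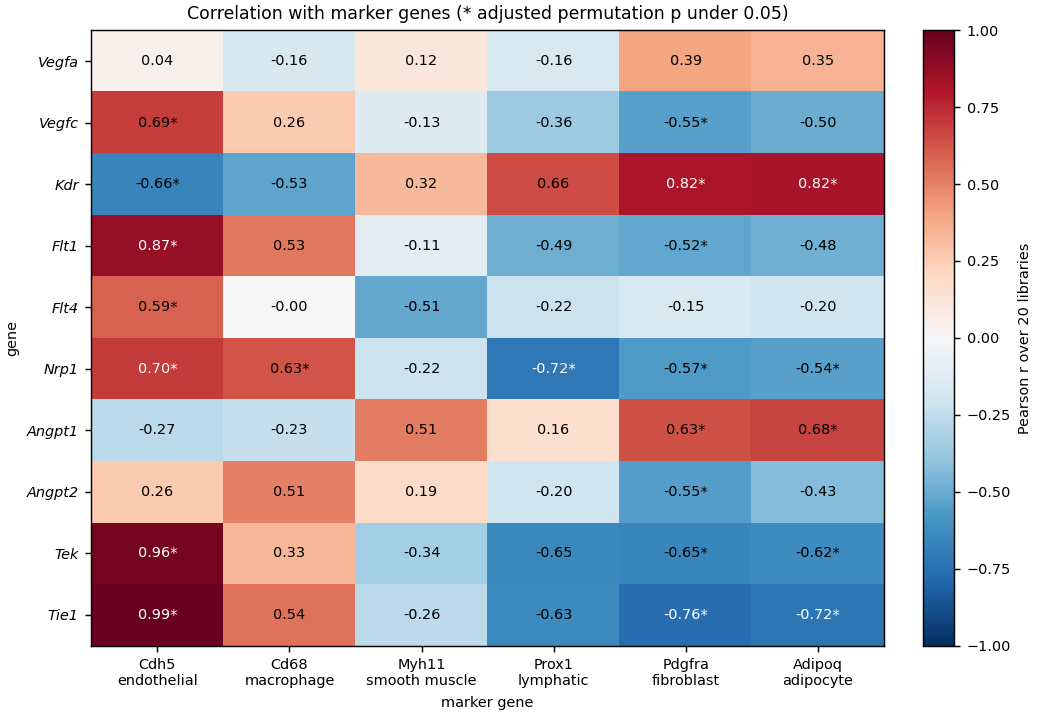
Pearson r over 20 libraries between each of the 10 genes (rows) and 6 marker genes (columns), with blue for negative and red for positive values and a star at an adjusted permutation p under 0.05. Tie1 and Tek are positive with Cdh5 and negative with Pdgfra and Adipoq, and Kdr has the opposite signs.

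The genes with courses most like those of each of the 10, by Pearson r with group means removed over 20 libraries, differed between the receptors. For Tie1 they were Spon1 (r = 0.996), Synpo (0.991) and Cdh5 itself (0.991), and for Tek Podxl (0.988), Afap1l2 (0.987) and Enpp6 (0.983). Flt1 was closest to Cyyr1 (0.943), Mcam (0.941) and Itga1 (0.935), and Nrp1 to Fam214b (0.911), Tlr4 (0.910) and Gab2 (0.900). Kdr was closest to Slc39a8 (0.952), Commd6 (0.952) and Yaf2 (0.948), none of them a marker listed here. Vegfa was closest to Tns1 (0.935), Angpt1 to Ube2e2 (0.898), Angpt2 to Hn1l (0.823), Vegfc to Pcdhb17 (0.915) and Flt4 to Hoxb8 (0.932). Among the 10 genes the closest pair was Tek and Tie1 (r = 0.939, all libraries), followed by Flt1 and Tie1 (0.860), while Kdr and Tie1 were opposed (-0.712) and Vegfa and Angpt1 moved together at 0.628. These are descriptions over the same 20 libraries, in which the RNA of endothelial markers varied widely.

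Of 31 further symbols of the pathway, 30 had a row, Figf being an older name of Vegfd, and 26 passed the filter. None of the 26 was called in any comparison by limma, and at most 2 had an unadjusted p under 0.05 in a comparison. Of the other ligands, Vegfb had a median of 22.6 FPKM (7.67 to 71.8) and Vegfd, a ligand of Flt4, 8.73 FPKM (0.870 to 22.046). Their differences from HDL were 0.95 ± 0.52 and 1.01 ± 0.78 in Dual, 0.90 ± 0.52 and 1.27 ± 0.78 in LNA92a, and 0.72 ± 0.52 and 1.06 ± 0.78 in LNA489 (log2 ± SE), all above 0 and against the same 4 HDL libraries. HDL mice also had the lowest group medians of the adipocyte and fibroblast sums, at 184 and 321 FPKM, and the relation of these sums to Vegfb and Vegfd was not tested. Pgf, a ligand of Flt1, was at 0.038 to 3.68 FPKM, and its difference from HDL was 0.61 ± 0.38 in Dual, 0.97 ± 0.38 in LNA92a (limma adjusted p = 0.867) and 0.88 ± 0.38 in LNA489 (limma adjusted p = 0.920). Nrp2, the second neuropilin, had a median of 5.07 FPKM and differences from HDL of 0.83 ± 0.48 in Dual, 0.39 ± 0.48 in LNA92a and 0.88 ± 0.48 in LNA489. Ptprb (VE-PTP), the phosphatase that restrains Tek, ranged from 5.41 to 499 FPKM. Angpt4, Esm1, Apln and Aplnr did not pass the filter, with medians of 0.200, 0.264, 0.263 and 0.164 FPKM. Esm1 and Apln are textbook targets of VEGF signalling in sprouting endothelium, and their highest values were 1.42 FPKM in Saline 2 and 1.75 FPKM in LNA489 14.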

How the data were processed

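The authors deposited variance-stabilized log2 values of 20442 genes and FPKM values (fragments per kilobase of gene and M, mega, reads) of 32081 genes, per the file headers. Build GRCm38.p5 and, as tools, DESeq2 1.18.1, featureCounts 1.15.29, STAR 2.5.3a, FastQC and cutadapt 1.16 are listed per the submitters' processing notes. Whether strand was used in counting, and how multi-mapping reads were handled, is not given in the sources used here. Coordinates and 3′ UTRs came from GENCODE M21 on GRCm38 (1-based). Whole reads were recovered from FPKM and gene length. Where a gene was no longer than 3000 bases and had at most 1000 reads, 100% of values lay within 0.1 of a whole number.

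Group means of all 20 libraries were fitted with limma 3.58.1 (R 4.3.3) on the deposited log2 values, with a trend and moderated variances, for genes with a mean FPKM of at least 0.5. The calls used a Benjamini-Hochberg adjusted p under 0.05, 2-sided. The same fit was run after subtraction of Cdh5. Correlations used 100000 permutations, within groups where group means were removed, with numpy 2.4.6. The scripts were tested on simulated data. No count model was the main test, since the files hold no raw counts.

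Each library is a separate mouse by its animal number, and the labels give no batch. The members, the gene lists and the tests were chosen with earlier results of these data known. The text names the 10 genes and Cdh5 throughout, the 3 genes with the highest r to each (the closest 1 for some), and from the pathway list every gene that passed and always Vegfb, Vegfd, Pgf, Angpt4, Nrp2, Ptprb, Esm1 and Apln. Aplnr was named in addition because it also failed the filter. Alternatives were other pseudocounts, filters, scalings, weights, recovered reads, another endothelial reference and each library left out. No promoter of Angpt1 or Angpt2 and no protein sequence was used here.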

Additional observations from a re-analysis of the deposited data

Results flagged for a closer look

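In each of 50 groups of 4 values, 10 genes in 5 treatment groups, the highest and lowest library were compared with the other 3 on the variance-stabilized log2 scale. In 5 of them 1 library lay far from the rest relative to the range, with a gap of 0.860 to 0.979 of it. A chance rate of about 1 in 20 groups would hold only for independent groups. The 10 genes were read in the same libraries, so the count of 5 cannot be set against that rate. Vegfa in HDL was low in HDL 11, at 8.81, and Flt4 in HDL was low in the same library, at 7.70, which was also the library rich in B cell genes. Kdr in HDL was high in HDL 4, at 10.97, the HDL library with the lowest Cdh5. Kdr in LNA92a was low in LNA92a 12, at 10.12, although by FPKM that library was the second highest of the 4, at 8.14 FPKM, and Vegfc in Dual was low in Dual 15, at 6.02. What lies behind these values was not tested.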

How the results depend on the processing

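On the variance-stabilized scale and relative to Cdh5, the number of the 10 genes called stayed at 0 over all 7 comparisons and in the F-test, under each of 28 alternatives a scale. These were log2(FPKM + 0.1) and log2(FPKM + 1), median-centred libraries, no filter and a filter of 1 FPKM, voom, array weights, another endothelial reference, Cdh5 as a covariate, each library left out in turn, the spread of each gene alone, and Dual 10, Saline 2 and HDL 11 left out together, the last 2 added after seeing the data. The array weights relative to Cdh5 stopped before full convergence. Of 1960 alternative values a scale, 127 on the variance-stabilized scale and 100 relative to Cdh5 had the opposite sign, none where the difference exceeded its SE. The number of genes called with Cdh5 ranged from 6 to 7, the loss being Flt4. No paired analysis was possible because no animal number occurs in more than 1 group. With 4 mice a group, the SE of 0.43 to 1.11 limits what differences could be detected, and depth limits Vegfc, Angpt1 and Angpt2, at 1 to 419 reads a library.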
